A study of Mus musculus with 6 samples.

Results

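The genes of polyamine and arginine metabolism described here were the arginases Arg1 and Arg2, the inducible nitric oxide synthase Nos2, the polyamine-synthesis genes Odc1, Srm, Sms and Amd1, the antizyme gene Oaz1 and the polyamine-breakdown genes Sat1 and Smox. They were found by their symbols among the array's probes that are not controls. Of 10 genes listed, 9 had a probe, and they held 17 of the 55681 probes. No probe carried the name Amd1. Its near-identical paralog Amd2 had 3 probes, which are described apart.

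Gene expression was measured on 1-colour arrays in 3 skin tumors, labelled as cutaneous squamous cell carcinoma, and in 3 biopsies of healthy skin. All mice were females of the inbred strain FVB/N. The tumor mice had been painted with the mutagen DMBA, then with the phorbol ester PMA (also called TPA) for 6 weeks, then with DMBA again and with PMA for 14 more weeks, and tumors were collected along the way. Healthy skin came from mice painted with acetone, the solvent. The stage at which each tumor was taken is not given in the labels, and no DMBA- and PMA-painted skin without a tumor was measured, so the tumor and the painting cannot be told apart.

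Arginine feeds 2 competing routes. Arginase splits it into urea and ornithine, whereas nitric oxide synthase turns it into nitric oxide and citrulline. Ornithine decarboxylase (Odc1) makes putrescine from ornithine and is the regulated entry into polyamine synthesis, and in mouse skin it is a classical phorbol-ester-induced enzyme. Spermidine synthase (Srm) and spermine synthase (Sms) then lengthen the chain with aminopropyl groups that Amd1 prepares from S-adenosylmethionine. Antizyme (Oaz1) sends ornithine decarboxylase to the proteasome, Sat1 acetylates spermidine and spermine for export or oxidation, and Smox oxidises spermine back to spermidine.

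Each probe is a strand of 60 bases, and a gene's value rests on where its probes sit. The following probes are shown because they include the arginase pair that the largest difference turns on and, for Odc1, Srm, Sms, Smox and Amd2, the probe that starts nearest the 5′ end of the transcript. Positions follow the array annotation, on mouse build mm9, and each sequence is given 5′ to 3′.
Arg1, chr10:24636194-24636253, minus strand: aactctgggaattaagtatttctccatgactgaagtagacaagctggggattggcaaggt
Arg2, chr12:80252972-80253031, plus strand: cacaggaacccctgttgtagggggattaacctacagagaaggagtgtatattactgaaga
Odc1, chr12:17554799-17554858, plus strand: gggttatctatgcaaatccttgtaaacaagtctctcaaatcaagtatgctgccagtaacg
Srm, chr4:147968254-147968313, plus strand: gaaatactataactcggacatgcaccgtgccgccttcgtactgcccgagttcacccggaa
Sms, chrX:153885307-153885366, minus strand: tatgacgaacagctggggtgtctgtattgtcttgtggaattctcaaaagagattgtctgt
Smox, chr2:131347853-131347912, plus strand: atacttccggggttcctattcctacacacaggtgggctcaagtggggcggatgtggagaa
Amd2, chr10:40009136-40009195, minus strand: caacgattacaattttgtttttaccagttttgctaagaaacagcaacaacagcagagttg
The probes of the arginases had no run of more than 7 bases in common.

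The share of spots well above background was 48.7% to 65.4% per array. Median background was 85 intensity units for tumor 1 and 23 to 26 elsewhere, and the 75th percentile signal was 525 to 897 except for healthy skin 3, at 242. All 6 arrays lay on 1 slide: tumors 1, 2 and 3 and healthy skin 3 in slide row 2, and healthy skin 1 and 2 in slide row 1. Across features, arrays of 1 group correlated at 0.937 to 0.971 and arrays of different groups at 0.821 to 0.894 (Pearson r over features, which are not independent replicates). Basal keratinocyte markers had a summed level of 795 to 1000 in tumors and 823 to 1410 in healthy skin, with all 7 measured, so both groups carried the defining markers of skin epithelium.

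Values below are log2 signals relative to the array's own 75th percentile, so 0 is as bright as that percentile, and they compare arrays for 1 probe but not probes with each other. Differences are tumor minus healthy skin on the log2 scale, with limma's standard error (SE) and its p adjusted over all 24757 features by the Benjamini-Hochberg method. At an adjusted p under 0.05, 6 of the 9 measured genes were higher in tumors and 0 were lower, and the unadjusted p gave the same 6 and 0. At the adjusted p, the shares called among all 24757 features were 10.3% higher and 15.6% lower. At limma's unadjusted p under 0.05, 4083 of the 24757 features were higher and 5996 lower. The median log2 difference of the 9 genes was 1.54, against -0.16 over all features. The genes were chosen with earlier results of these data known, so this contrast describes the list and is no test of it. All 3 tumors lay above all 3 healthy samples for 6 of the 9 genes, and for none of the 9 did all tumors lie below. Of all features, 49.7% had groups that did not overlap, 20.7% with the tumors above and 29.0% with the tumors below.

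The largest difference was that of Arg1, the cytosolic arginase. Its log2 level was 7.75, 7.71 and 6.65 in the tumors and 0.16, 0.83 and -2.17 in healthy skin. Every tumor was far above every healthy sample, and healthy skin 3 was the lowest array. Arg1 averaged 7.37 ± 0.62 in tumors and -0.39 ± 1.58 in healthy skin (SD, n = 3 each). The log2 difference was 7.76 ± 0.76 (SE), a 218-fold higher signal in tumors (limma adjusted p = 0.000972), with a 95% interval of 5.99 to 9.54. The difference was 6.87 without healthy skin 3 and 8.38 without healthy skin 2, so the fold depends on single arrays while the call does not. It ranked 44 among all features ordered by rise, and its probe was well above background on all arrays of both groups.

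Arg2, the mitochondrial arginase, gave a different picture. Its log2 level was -1.03, -3.26 and -0.76 in the tumors and -1.68, -3.52 and -2.92 in healthy skin. The groups overlapped, and tumor 2 lay below healthy skin 1 and 3. The log2 difference of 1.02 ± 0.75 (SE) did not pass the test (limma adjusted p = 0.335), and its 95% interval, -0.72 to 2.77, spans differences of either sign.

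Nos2, which makes nitric oxide from arginine, had log2 levels of 0.71, 0.22 and 0.02 in the tumors and -1.25, -1.22 and -0.62 in healthy skin. All 3 tumors were higher than all 3 healthy samples, with a narrow gap between tumor 3 and healthy skin 3. The log2 difference was 1.35 ± 0.33 (SE), or 2.55-fold (limma adjusted p = 0.023, 95% interval 0.59 to 2.11). This call was lost in 8 of 20 alternative settings, among them those without tumor 1, tumor 2, healthy skin 1 or healthy skin 2.

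**Figure D1:**
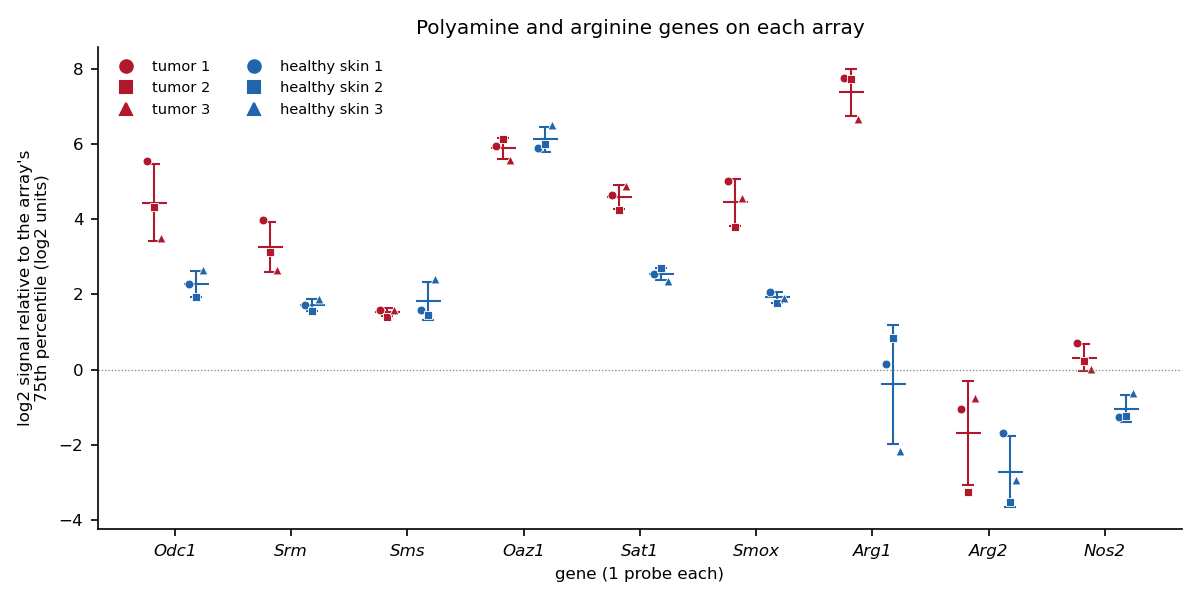
Log2 signal relative to each array's 75th percentile for the 9 measured genes, with 1 point per array, tumors left of healthy skin, and bars for the mean ± SD (n = 3 each). Arg1 shows the widest gap, 7.37 in tumors against -0.39 in healthy skin, while Arg2, Sms and Oaz1 overlap between the groups.

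Odc1, the enzyme that commits ornithine to polyamines, was higher in tumors. On its brightest probe the log2 level was 5.54, 4.31 and 3.49 in the tumors and 2.28, 1.93 and 2.64 in healthy skin. Tumor 1 was the highest array and tumor 3 the lowest of the tumors, yet no tumor reached down to a healthy value. The mean was 4.44 ± 1.03 in tumors and 2.28 ± 0.35 in healthy skin (SD, n = 3 each). The log2 difference was 2.16 ± 0.52 (SE), or 4.47-fold (limma adjusted p = 0.0233, 95% interval 0.94 to 3.38).

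The other 3 Odc1 probes were also higher in tumors when every probe was fitted by itself, a fit in which 26.0% of probes were called. The probe printed above, which starts at base 729 of the transcript, had log2 levels of 2.71, 1.21 and 0.40 in tumors and -0.82, -1.41 and -2.43 in healthy skin, a log2 difference of 3.0 ± 0.65 (SE, limma adjusted p = 0.0157). The probe starting at base 2107 differed by 3.41 ± 0.52 (SE, limma adjusted p = 0.00451) and the one at base 1962 by 2.22 ± 0.53 (SE, limma adjusted p = 0.0222). These are not independent readings, since the brightest probe and the one at base 1962 have a run of 46 bases in common.

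Oaz1, the antizyme that counters Odc1, had log2 levels of 5.93, 6.12 and 5.58 in the tumors and 5.88, 5.99 and 6.50 in healthy skin. The groups overlapped, and the log2 difference of -0.25 ± 0.31 (SE) did not pass the test (limma adjusted p = 0.575, 95% interval -0.96 to 0.47). Its other probe, which has a run of 54 bases in common with the first, gave -0.22 ± 0.31 (SE, limma adjusted p = 0.631). The sign of the Oaz1 difference depended on the scaling, with 0.12 under median scaling and 0.64 under spike-in scaling. None of the 4 measured antizymes and antizyme inhibitors passed the limma test, at an unadjusted p under 0.05 likewise 0, and the inhibitor Azin1 had a log2 difference of 0.04.

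Srm, which makes spermidine, had the same order of tumors as Odc1, an order that 3 tumors are too few to interpret. Its log2 level was 3.98, 3.14 and 2.66 in the tumors and 1.73, 1.57 and 1.87 in healthy skin. Tumor 1 was again the highest and tumor 3 the lowest of the tumors, and the groups did not overlap. The log2 difference was 1.54 ± 0.38 (SE), or 2.91-fold (limma adjusted p = 0.0248, 95% interval 0.65 to 2.43). The Srm probe printed above had log2 levels of 3.16, 2.34 and 1.86 in tumors and 0.83, 0.71 and 0.35 in healthy skin, a difference of 1.82 ± 0.39 (SE, limma adjusted p = 0.0147).

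Sms, which makes spermine from spermidine, did not pass the test on its brightest probe. That probe had log2 levels of 1.60, 1.41 and 1.60 in the tumors and 1.60, 1.46 and 2.41 in healthy skin, and the groups overlapped. The log2 difference was -0.29 ± 0.33 (SE, limma adjusted p = 0.544, 95% interval -1.06 to 0.49), and it was 0.08 under median scaling and 0.60 under spike-in scaling.

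The Sms probes did not all read alike. The probe starting at base 3317 had log2 levels of -0.71, -0.50 and -0.88 in the tumors and 1.11, 1.34 and 0.93 in healthy skin. All 3 tumors were lower there, by -1.82 ± 0.28 (SE, limma adjusted p = 0.00447 with every probe by itself). That call held in 10 of 11 settings run for single probes and was lost with spike-in scaling, where the difference was -0.94 (limma adjusted p = 0.429). The settings run for single probes leave out the slide row fits, changes of the detection filter, the variance trend and the replicate block. They also leave out the fit without healthy skin 3 and tumor 1 together. The printed probe at base 1074 had log2 levels of -1.54, -1.12 and -0.75 in the tumors and -0.38, -0.57 and -0.72 in healthy skin, a difference of -0.59 ± 0.31 (SE) that did not pass the test (limma adjusted p = 0.191). With the mean of its probes, Sms was lower in tumors by -0.90 (limma adjusted p = 0.0324). The probes span different stretches of the transcript, and a difference between transcript forms was not tested.

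For Amd1, the decarboxylase that supplies the aminopropyl groups, only the probes named Amd2 can be given. The transcript accessions listed for the probes starting at bases 3117 and 1276 include that of Amd1 as well, so their signal cannot be assigned to 1 paralog. The probe at base 3117 had log2 levels of 4.20, 4.51 and 4.05 in tumors and 3.41, 3.83 and 3.87 in healthy skin, a difference of 0.55 ± 0.29 (SE, limma adjusted p = 0.189). The printed probe at base 1276 differed by -0.43 ± 0.42 (SE, limma adjusted p = 0.478). The probe at base 1736, which lists Amd2 alone, had log2 levels of 0.87, 1.43 and 1.15 in tumors and -0.46, -0.32 and -0.14 in healthy skin. Its sequence was not compared with that of Amd1. The difference was 1.46 ± 0.28 (SE, limma adjusted p = 0.0108), called in 11 of 11 settings run for single probes. The Amd2 probes thus ranged from a difference that did not pass the test, below 0, to a called rise.

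**Figure D2:**
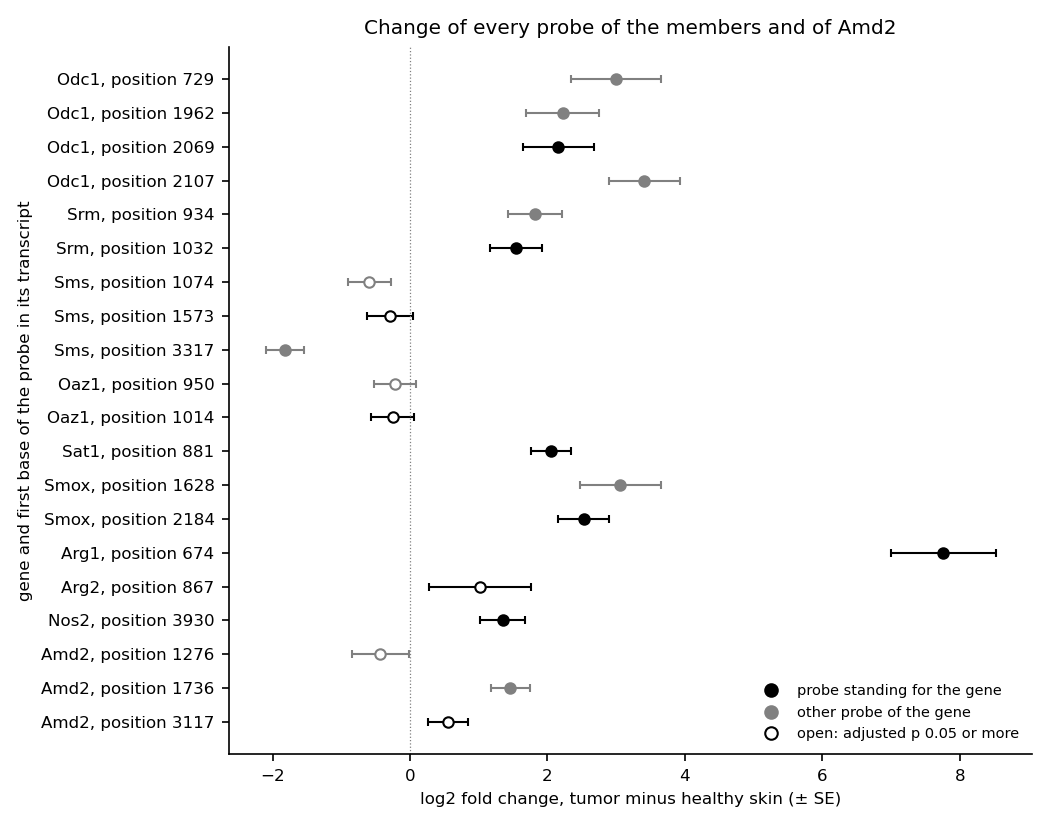
Log2 difference, tumor minus healthy skin, for every probe of the measured genes and of Amd2, fitted by itself, with bars for ± SE (n = 3 each). All 4 Odc1 probes lie above 0, between 2.16 and 3.41, while the Sms probes lie between -1.82 and -0.29.

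Both breakdown genes were higher in tumors. Sat1, the acetyltransferase that limits polyamine catabolism, had log2 levels of 4.65, 4.23 and 4.89 in the tumors and 2.54, 2.70 and 2.37 in healthy skin. Each group was tight and the groups lay well apart. Sat1 averaged 4.59 ± 0.33 in tumors and 2.54 ± 0.16 in healthy skin (SD, n = 3 each), a log2 difference of 2.05 ± 0.29 (SE), or 4.14-fold (limma adjusted p = 0.00349, 95% interval 1.37 to 2.73).

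Smox, the spermine oxidase, had log2 levels of 5.01, 3.78 and 4.55 in the tumors and 2.07, 1.77 and 1.91 in healthy skin. The lowest tumor was above the highest healthy sample. The log2 difference was 2.53 ± 0.37 (SE), or 5.77-fold (limma adjusted p = 0.00371, 95% interval 1.68 to 3.38). The printed Smox probe had log2 levels of 3.29, 1.90 and 2.83 in tumors and 0.50, -0.10 and -1.57 in healthy skin, a difference of 3.06 ± 0.59 (SE, limma adjusted p = 0.0107).

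The 6 calls did not hold equally well. Arg1, Sat1 and Smox passed in all 20 alternative settings, Odc1 and Srm in 14 and Nos2 in 12. Without tumor 2, healthy skin 1 or healthy skin 2, the calls for Odc1, Srm and Nos2 were lost and 3 genes remained called. Within slide row 2, where 3 tumors were set against healthy skin 3 alone and the lone sample is assumed to vary like the tumors, the log2 difference was 9.54 for Arg1, 2.21 for Sat1, 2.53 for Smox, 1.81 for Odc1, 1.39 for Srm and 0.94 for Nos2. The fit with slide row as a block gave those same differences. Of these, Arg1, Sat1 and Smox passed the test in both fits.

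**Figure D3:**
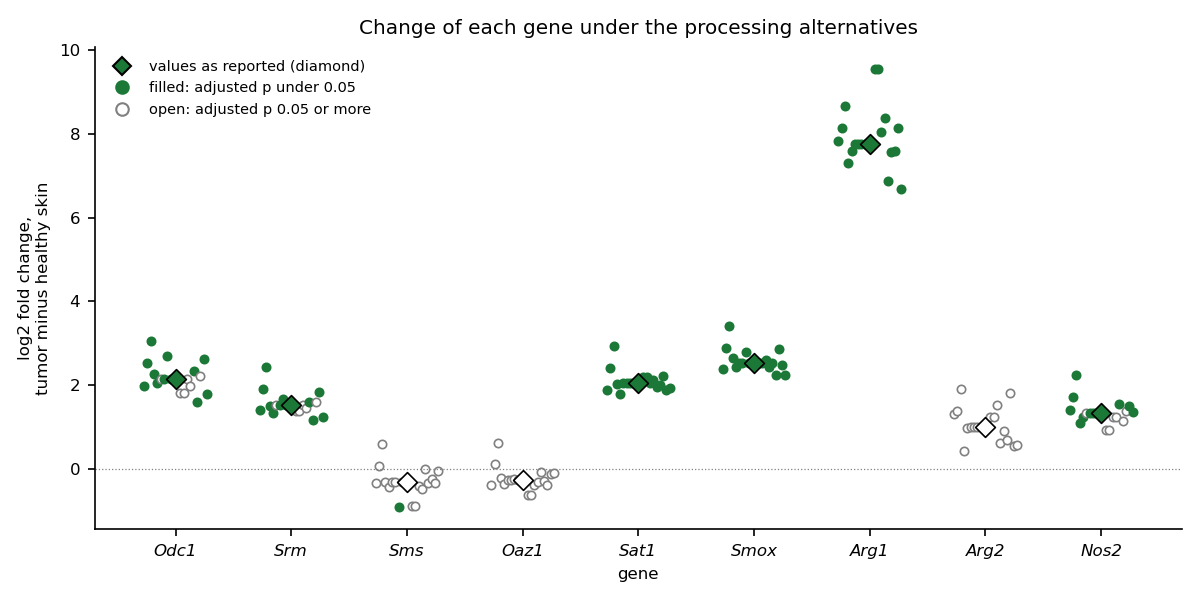
Log2 difference, tumor minus healthy skin, for the 9 measured genes under the main setting and each alternative, with filled marks where the limma test was passed. Arg1 stays between 6.68 and 9.54 and Smox between 2.24 and 3.42, while Sms and Oaz1 cross 0.

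Differences between genes on the same array do not move with the scaling between arrays, so 5 pairs were compared in that way. The exact two-sided permutation test over 3 against 3 arrays cannot go below p = 0.1, and no pair could pass. The log2 signal of Arg1 minus that of Arg2 was 8.79, 10.97 and 7.41 in the tumors and 1.84, 4.36 and 0.75 in healthy skin, a difference of 6.74 (exact permutation p = 0.1, 0.125 adjusted over the 5 pairs). Arg1 minus Nos2 was 7.04, 7.49 and 6.64 in the tumors and 1.42, 2.06 and -1.55 in healthy skin, a difference of 6.42 with the same exact p. In both pairs all 3 tumors lay above all 3 healthy samples. The measured difference was larger for Arg1 than for Arg2 or Nos2, which this test could not decide. Each pair's value is the difference of its first gene less that of its second, so it is no separate support. Of all single features, 49.7% had groups that did not overlap, and no such share was computed for pairs.

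Odc1 minus Oaz1 was -0.40, -1.82 and -2.09 in the tumors and -3.59, -4.06 and -3.87 in healthy skin, a difference of 2.41 (exact permutation p = 0.1). These are RNA signals, and neither protein nor enzyme activity was measured. Srm minus Sms was 2.38, 1.73 and 1.06 in the tumors and 0.12, 0.11 and -0.53 in healthy skin, a difference of 1.83 (exact permutation p = 0.1). In both pairs the tumors lay above all healthy samples. Odc1 minus Sat1 was 0.89, 0.08 and -1.40 in the tumors and -0.26, -0.77 and 0.26 in healthy skin, a difference of 0.11 with overlapping groups (exact permutation p = 1), and without single arrays it ran from -0.41 to 0.74.

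**Figure D4:**
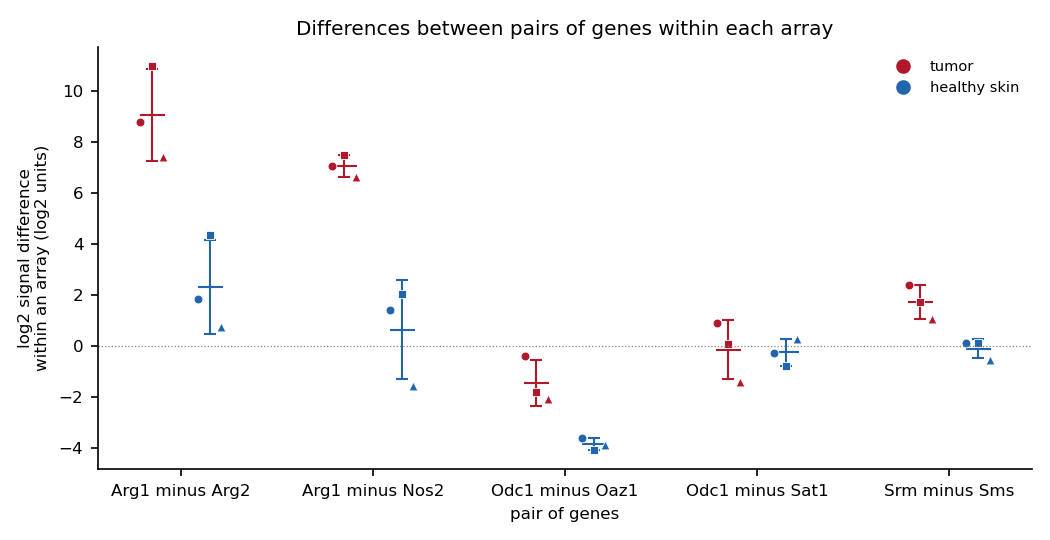
Within-array log2 signal differences for the 5 pairs of genes, with 1 point per array, tumors left of healthy skin, and bars for the mean ± SD (n = 3 each). The groups are separate in 4 pairs and overlap for Odc1 minus Sat1, which differed by 0.11.

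Beyond these genes, 61 further genes of the pathway were listed, also with earlier results of these data known, and 54 of them were measured. Of these, 11 were higher and 7 lower in tumors, against 25.9% of all features called in either direction, and their median log2 difference was 0.19. Median scaling called 17 of them higher and 5 lower, and spike-in scaling 8 higher and 0 lower. Without tumor 2 the counts were 5 higher and 4 lower, and without tumor 1 they were 5 higher and 6 lower. The balance over all features moved with the scaling as well: the called features were 39.8% higher under the main scaling, 62.9% under median scaling and 70.8% under spike-in scaling. The median difference of all features was -0.16, 0.21 and 0.73 under those scalings.

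Around arginine, the enzymes that rebuild it from citrulline were both higher in tumors. Argininosuccinate synthase, Ass1, had log2 levels of 4.45, 2.60 and 4.14 in tumors and 1.41, 1.02 and 1.53 in healthy skin. The difference was 2.41 ± 0.50 (SE, limma adjusted p = 0.0134), a call lost in 3 of 20 settings. Argininosuccinate lyase, Asl, differed by 2.17 (limma adjusted p = 0.0273), a call lost in 4 of 20 settings, and by 1.5 without healthy skin 3. Gamt, the last enzyme of creatine synthesis, was lower by -2.14 (limma adjusted p = 0.00514). Among 5 measured cationic amino acid transporters, the arginine importer Slc7a1 was higher by 1.5 (limma adjusted p = 0.0316, lost in 9 of 20 settings) and Slc7a6 lower by -2.08 (limma adjusted p = 0.00514).

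In the group of nitric oxide synthases with their cofactor and inhibitor genes, 4 of 10 measured genes were higher and 0 lower in tumors. Of all features, 10.3% were called higher and 15.6% lower. Nos2 was among the 4, with its call lost in 8 of 20 settings. Ddah1, which degrades methylarginines that block nitric oxide synthase, had log2 levels of -0.81, -0.67 and 0.35 in tumors and -3.53, -2.95 and -4.58 in healthy skin, a difference of 3.32 (limma adjusted p = 0.00447). The difference was 1.86 after normexp background correction and 2.63 on the authors' deposited values, both called. Its probe was well above background on 2 of the 3 healthy arrays. Gch1, the entry enzyme of tetrahydrobiopterin synthesis, was higher by 2.62 (limma adjusted p = 0.0131), though the mean of its probes gave 1.33 (limma adjusted p = 0.15). Nostrin differed by 1.55 (limma adjusted p = 0.0118), but by 0.18 after normexp background correction, with a dim probe. Endothelial Nos3 had a log2 difference of 0.14 and did not pass the test.

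Ornithine can also turn into proline. The synthesis enzymes Aldh18a1 and Pycr1 were higher in tumors by 1.21 (limma adjusted p = 0.0236) and 2.09 (limma adjusted p = 0.0398), and the breakdown enzymes Prodh and Aldh4a1 were lower by -2.44 (limma adjusted p = 0.0167) and -1.15 (limma adjusted p = 0.0194). Pycr1 was well above background on 2 of 3 arrays in each group, and its difference was 0.39 after normexp and 1.41 without healthy skin 3. Without tumor 1 the Prodh difference was -3.04, and its call was lost without tumor 2 or healthy skin 3. The calls for Aldh18a1 and Aldh4a1 were lost in 11 and 9 of 20 settings. Oat, which links ornithine to this route, had a log2 difference of 0.38 and did not pass.

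On the side of polyamine synthesis, Mtap, which clears the methylthioadenosine left by Srm and Sms, was higher by 2.95 (limma adjusted p = 0.0123). It stayed called in all 20 settings, at differences of 2.06 to 4.16, with 2.34 without healthy skin 3. Its log2 levels were 0.43, 1.40 and -0.04 in tumors and -1.78, -1.70 and -3.56 in healthy skin. In the same salvage group, Got1, the cytosolic aspartate aminotransferase, was lower by -1.57 (limma adjusted p = 0.0108). The methionine adenosyltransferase genes Mat2a and Mat2b, at log2 differences of -0.08 and -0.07, did not pass the test. Eif5a, the translation factor that carries the spermidine-derived residue hypusine, was higher by 1.75 (limma adjusted p = 0.036, lost in 7 of 20 settings), whereas the hypusine enzymes Dhps and Dohh, at 0.18 and 0.06, did not pass. Among transport genes, the lysosomal polyamine exporter Atp13a2 was lower by -1.32 (limma adjusted p = 0.0487, lost in 10 of 20 settings).

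In the breakdown group, Sat1 and Smox were the 2 of 4 measured genes that were higher. The peroxisomal oxidase Paox had log2 levels of 4.08, 4.23 and 2.25 in tumors and 2.67, 2.74 and 3.40 in healthy skin, and its difference of 0.58 did not pass. Myc, a known transcriptional activator of Odc1, was higher by 1.33 (limma adjusted p = 0.024, lost in 8 of 20 settings), and Mycl was lower by -1.99 (limma adjusted p = 0.00255). With spike-in scaling, 0 of the further pathway genes were called lower, so the falls of Gamt, Got1, Slc7a6, Prodh, Aldh4a1, Atp13a2 and Mycl all lost their calls.

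**Figure D5:**
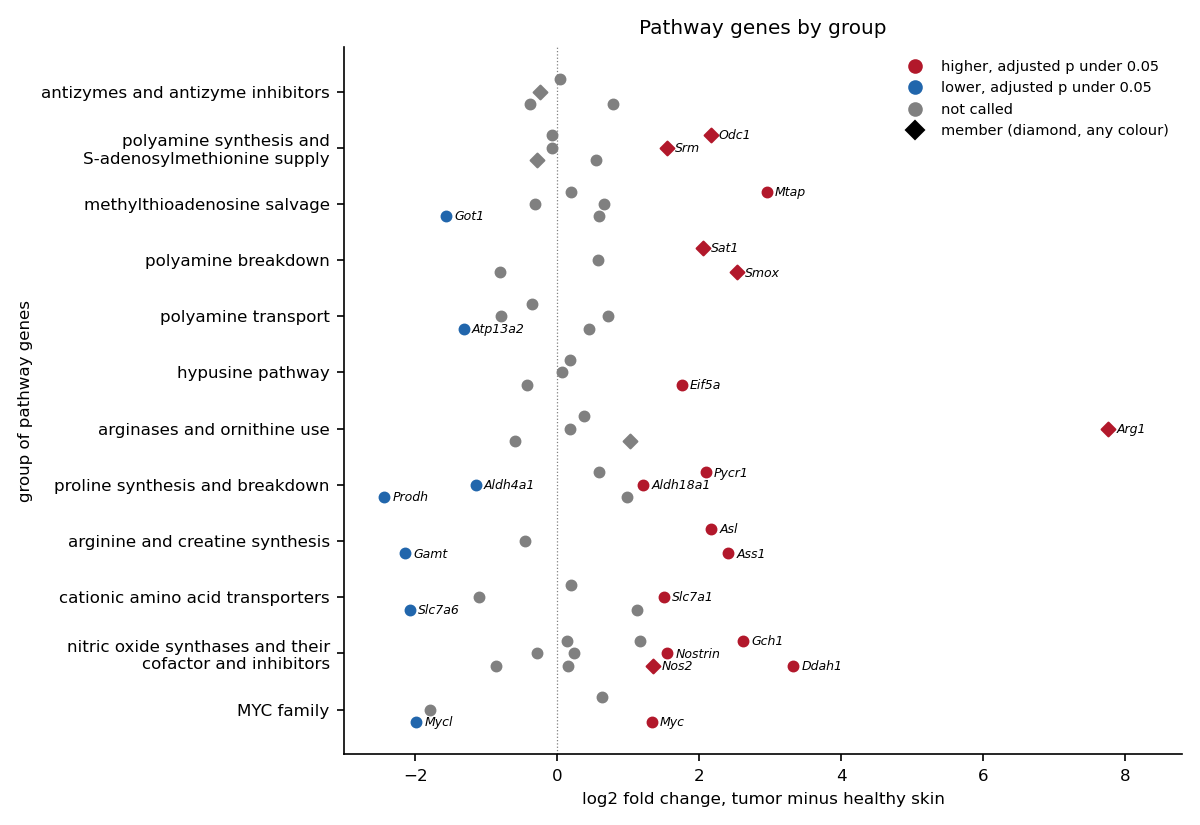
Log2 difference, tumor minus healthy skin, for the measured genes of the fixed pathway lists, grouped by list, with called and not called genes marked. Arg1 lies furthest right at 7.76, and the antizyme group holds no called gene.

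The biopsies are bulk tissue, in which fewer cells of a type and less RNA per cell cannot be told apart. Markers of several other cell types also differed, and their part in these results was not tested. Other lists moved little: of 6 fibroblast markers, 1 was higher and 1 lower in tumors. None of 7 basal keratinocyte, 5 endothelial, 5 mast cell and 4 melanocyte markers passed the limma test. Of 8 measured neutrophil markers, 7 were higher in tumors, with a summed linear level of 502 to 765 in tumors and 205 to 264 in healthy skin. Csf3r, which makes up most of the summed signal in healthy skin, did not pass the test (log2 levels of 7.09, 7.09 and 7.07 in tumors and 7.59, 7.93 and 8.02 in healthy skin). S100a8 and S100a9, which keratinocytes also make, were among the 7, and Mmp8 and Ngp were well above background on no healthy array. Of 10 macrophage markers, 2 were higher (Cd68 and Cd14) and 1 lower (Cd163), at sums of 36.3 to 96.4 in tumors and 35.1 to 52.6 in healthy skin.

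Arg1 is used as a marker of alternatively activated macrophages in the mouse. Of 6 other such markers, 1 was higher in tumors (Chil3) and 3 lower (Retnla, Clec10a and Cd209a), with a summed level of 92.5 to 201 in tumors and 151 to 180 in healthy skin. Nos2 is the corresponding marker of classical activation. Of 5 other measured markers of that state, 3 were higher (Il1b, Tnf and Ptgs2), with a sum of 9.28 to 25.3 in tumors and 0.767 to 1.99 in healthy skin. Every measured gene of both sets was well above background on at least 1 tumor array.

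Proliferation markers were higher for 5 of 6 genes, at sums of 32.2 to 73.8 in tumors and 15.6 to 16.3 in healthy skin, beside the rises of Odc1 and Srm. Suprabasal keratinocyte markers were lower for 4 of 6 genes, at 66.2 to 251 in tumors and 975 to 1260 in healthy skin. All 7 skeletal muscle markers were lower, at 17.9 to 45.2 in tumors and 585 to 1140 in healthy skin, beside the fall of Gamt. Of 5 measured adipocyte markers, 4 were lower. Their sums overlapped, at 64.6 to 193 in tumors and 50.2 to 173 in healthy skin, and Fabp4 did not pass (log2 difference 0.90). Of 5 Schwann cell markers, 4 were lower, and Mbp did not pass (0.62). Their sums also overlapped, at 8.22 to 21 in tumors and 10.6 to 21.5 in healthy skin. Sebaceous gland markers were lower for 4 of 6 genes, at 21.2 to 61 in tumors and 74.6 to 133 in healthy skin. T cell markers were lower for 2 of 5 measured genes, at 9.22 to 12.3 in tumors and 11.5 to 31.3 in healthy skin. None of the 7 hair shaft and inner root sheath markers passed the limma test, at an unadjusted p under 0.05 likewise 0. Their sums ran from 2.30 to 106 in tumors and from 2.44 to 461 in healthy skin, with healthy skin 1 and tumors 1 and 3 high. Whether these marker differences reflect tissue makeup, and whether they contribute to any gene's difference, was not tested.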

How the data were processed

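Total RNA of 3 tumors and 3 healthy biopsies was labelled with Cy3 and hybridised to Agilent 1-colour arrays, per the labels' protocols. Per the file headers, Agilent Feature Extraction 10.7.3.1 produced the deposited intensity values and subtracted a fitted background. The authors' deposited series table holds log2 values whose background handling is not given in the sources used here. It served as an alternative. Per the submitters' processing notes, limma was used.

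The main scale was log2 of the processed signal, set to 0 at the array's 75th percentile of spots that are not controls. Outlier spots were left out, spots of a probe averaged, and probes kept where 3 or more of the 6 arrays were well above background (34284). The probe with the highest mean stood for its gene (24757 features). Tumors were set against healthy skin with limma's lmFit and eBayes (limma 3.58.1, R 4.3.3). The test was two-sided with no block, at a threshold of 0.05 after Benjamini-Hochberg adjustment. Within-array pairs were tested by exact permutation. Whether each biopsy is from its own mouse is not in the labels; p-values thus measure only the spread among these samples, which may be technical, and the number of arrays limits the precision. Summed marker levels add linear signals relative to the 75th percentile.

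The members and lists were chosen with earlier results of these data known. All members are named. Of each pathway list, genes past the test are named first, at most 4 by size. Markers are counts, and those making up small counts are named after their values were seen. Other settings tried were scaling by quantiles, the median or spike-ins, normexp (offset 50), the deposited table, no or a stricter detection filter, the mean of probes, every probe by itself, a variance trend, a block for replicate number or for slide row, slide row 2 alone, and leaving out arrays. The fit was tested on simulated data. Of 50 changes each of log2 size 1, 2, 3 and 4, it recovered 0, 13, 30 and 37. A gene that did not pass may thus still differ. Far fewer features were changed there than were called here, so these rates need not hold here.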

Additional observations from a re-analysis of the deposited data

How the results depend on the processing

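Under 20 alternatives, Arg1 (6.68 to 9.54), Sat1 (1.80 to 2.94) and Smox (2.24 to 3.42) kept direction and call, and Arg2 (0.44 to 1.91) never passed. With no detection filter, which tests more features, 3920 features, 10 further pathway genes and 3 members were called, and Odc1 (2.16), Nos2 (1.35) and Srm (1.54) lost their calls. Slide row as a block and slide row 2 alone both set the tumors against healthy skin 3, with Odc1 at 1.81, Nos2 at 0.94 and Srm at 1.39. Spike-in scaling gave 2685 features and 8 pathway genes, with Sms at 0.60 and Oaz1 at 0.64. Median scaling gave 0.08 and 0.12 for these, and the mean of probes gave -0.90 for Sms, now called. Leaving out each array gave 3840 to 5458 features, 3 to 6 members, 9 to 15 pathway genes, 6.87 to 8.38 for Arg1, 1.61 to 2.64 for Odc1, 1.15 to 1.55 for Nos2, 1.18 to 1.84 for Srm, -0.47 to 0.01 for Sms and -0.41 to 0.74 for Odc1 minus Sat1. The lowest feature and pathway counts came without tumor 2. With the replicate number as a block, Nos2 (1.35, limma adjusted p = 0.0536) lost its call, 5 members and 5470 features were called, and no other member's call changed. Same-numbered samples deviated together at r = 0.103, 0.129 and -0.083, so the numbers give no pairing. Where not said otherwise, the cause of a change was not tested. Dim probes, such as those of Pycr1 and Nostrin, are limited by signal over background.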
